A study of Mus musculus with 29 samples.

Results

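The response of the prefrontal cortex to MPTP was examined in mice that carry the human AChE-R variant of acetylcholinesterase. The comparison set 2 arrays of MPTP-exposed AChE-R mice (replicates 1 and 2) against 2 arrays of naive AChE-R mice (replicates 3 and 4), 4 of the 29 arrays of the series. Naive AChE-R replicates 1 and 2 were left out because they stood apart from the other arrays of the strain. Acetylcholinesterase ends cholinergic transmission by hydrolysing acetylcholine. Its synaptic variant, AChE-S, forms membrane-anchored tetramers, whereas the read-through variant, AChE-R, is a soluble monomer that accumulates after stress. MPTP is a protoxin whose metabolite MPP+ enters dopamine neurons through the dopamine transporter and blocks mitochondrial respiration, and systemic MPTP also elicits an inflammatory reaction in the brain.

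The AChE-R mice with MPTP had received 4 injections of 20 mg/kg at intervals of 2 h, 80 mg/kg in total, and their brains were collected 4 days later. The naive AChE-R mice carry the same human transgene on the same FVB/N background. MPTP-exposed AChE-S mice, MPTP-exposed FVB/N mice (the parent strain, without a transgene) and naive mice of both strains, each with 2 arrays of the prefrontal cortex, served to ask where the AChE-R response differed. The protocol describes 6 MPTP-treated and 6 saline-injected mice of each strain. Whether the naive arrays hold the saline-injected mice, how many mice each array represents, the sex and age of the mice, and the promoter of the transgene could not be learned from the labels. The p-values therefore measure the spread between arrays, which may be technical.

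Values are log2 signals of probe sets, here called transcripts, and 1 probe set stands for each gene. A log2 difference of 1 is a 2-fold change of signal, the number after ± is the standard error of a difference, and a transcript is called when its limma p, adjusted over the 22626 transcripts, is under 0.05. A difference between strains was tested as the AChE-R log2 difference minus that of the other strain. The median signal was 7.77 in both AChE-R MPTP arrays, against 7.69 in both naive arrays. The labels spell the region in one way for all MPTP prefrontal arrays and in another for naive replicates 3 and 4 of every strain, and the spiked-in controls moved with it. The bioB hybridisation control read 7.76 and 7.80 in the AChE-R MPTP arrays, against 6.71 and 7.00 in the naive ones. In the other strains it read 7.48 to 7.90 in MPTP arrays, against 6.83 to 7.22 in naive arrays. Exposure and this array set cannot be told apart in the AChE-R comparison. With naive replicates 3 and 4, the tests between strains hold naive and MPTP pairs from the same sets in every strain. Naive replicates 1 and 2 do not match across strains. Their spiked-in dap control read 7.52 and 7.12 in AChE-R, against 3.97 to 4.21 in FVB/N and AChE-S. The naive AChE-R arrays left out carry the spelling of the MPTP arrays. Their Xist signals, however, were 9.45 and 9.52, against 6.97 to 7.19 in the 4 arrays used, and their 5′ minus 3′ actin differences were -1.30 and -2.30, against -0.90 to -0.63. With naive replicates 1 and 2 of each strain in use, 3 of 4 sex-linked genes were called higher and 1 lower in AChE-R, in FVB/N and in AChE-S. The sex of the mice was not tested.

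MPTP was followed by a broad change. Of 22626 transcripts, 5094 were called (22.5%), 3135 higher (13.9%) and 1959 lower (8.66%) in AChE-R MPTP cortex, and the median difference over all transcripts was 0.01. Quantile normalization moved this split to 2463 higher and 2549 lower. Most changes were small, with 43 of the higher and 26 of the lower transcripts passing 2-fold. With 1 array left out, 2492 (without MPTP replicate 1) to 3361 (without MPTP replicate 2) were called. The FVB/N comparison called 4276 transcripts (18.9%) and the AChE-S comparison 8401 (37.1%). Of the transcripts called higher in AChE-R, 1515 were also called higher in FVB/N, which is 48.3% of the AChE-R calls and 58.7% of the FVB/N calls. With AChE-S, 2466 were shared, 78.7% of the AChE-R calls and 51% of the AChE-S calls. Over all 22626 transcripts, 2580 were called higher in FVB/N and 4837 in AChE-S. Of the transcripts called lower in AChE-R, 942 (48.1%) were shared with FVB/N and 1383 (70.6%) with AChE-S. There, 1696 and 3564 of all transcripts were called lower. The array set splits MPTP from naive arrays alike in every strain, and its part in shared calls was not tested. The test of a difference between strains called far fewer transcripts. It called 16 between AChE-R and FVB/N (0.0707%), 54 between AChE-R and AChE-S (0.239%), and 8 between AChE-R and the mean of both (0.0354%). These 3 tests share the AChE-R arrays. Without AChE-R MPTP replicate 1 they called 0, 8 and 0 transcripts, and without AChE-R naive replicate 4 they called 1, 4 and 0, with limma. Unadjusted p was under 0.05 for 2105, 2661 and 2056 transcripts in these tests, in the same order. Of the 42 transcripts (0.186%) that were lower in AChE-R than in AChE-S by this test, 41 had a positive MPTP difference in AChE-S. The same AChE-S arrays chose these transcripts, which favours such a sign.

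Acute-phase and cytokine response genes, which brain cells and vessels switch on after systemic or local inflammation, held 2 of the 7 genes called in AChE-R against the mean of both other strains. Of 24 measured members, 5 rose and 1 fell in AChE-R, with a median difference of 0.10. Over all genes, 15.1% were called higher and 7.17% lower in AChE-R. In FVB/N 10 of the same 24 rose and in AChE-S 15 rose and 1 fell, where 10.3% and 24.1% of all genes were called higher and 6.58% and 14.6% lower. Groups did not overlap in AChE-R for 34.9% of all genes in the higher and 26.7% in the lower direction. Against the mean of both strains, the AChE-R difference was the lower one for 21 of 24 members, with a median of -0.28, and 2 members passed the test, Lcn2 and Osmr, where 0.0403% of all genes were called lower. With naive replicates 1 and 2 in use, 2 of the 24 rose and 6 fell in AChE-R (median -0.14, with a median of -0.125 over all transcripts), and with all 4 naive arrays 2 rose and 2 fell (median -0.03). Against both strains the difference was lower for 23 of 24 members with naive replicates 1 and 2 in use, a setting in which that test called 3771 transcripts.

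Lcn2 encodes lipocalin-2, a secreted protein that binds bacterial siderophores and is released by reactive astrocytes. Its signal was 5.67 and 6.57 in AChE-R MPTP cortex, against 4.65 and 4.74 in AChE-R naive cortex. In FVB/N it was 10.27 and 9.21 after MPTP, against 4.64 and 5.05 in naive mice. In AChE-S it was 9.74 and 10 after MPTP, against 5.08 and 4.89 in naive mice. The naive arrays of the strains overlapped, while both AChE-R MPTP arrays lay far below the MPTP arrays of the other strains and above all naive arrays. The rise in AChE-R was 1.43 ± 0.33, or 2.69-fold (adjusted p = 0.0065), against 4.89 in FVB/N and 4.88 in AChE-S. The AChE-R difference was lower than that of FVB/N by the test between strains (-3.47, adjusted p = 0.0164), lower than that of AChE-S (-3.46, adjusted p = 0.00651) and lower than the mean of both (-3.46 ± 0.41, adjusted p = 0.0051). The call against FVB/N was lost without AChE-R MPTP replicate 1, either AChE-R naive array, FVB/N MPTP replicate 1 or FVB/N naive replicate 3 (adjusted p = 0.0653 to 0.086), and that against AChE-S without AChE-R naive replicate 4 (0.0504). The AChE-R rise lost its call without MPTP replicate 2, at 0.975 and adjusted p = 0.0882. The difference from the mean of both lost it without MPTP replicate 1 (-3.02, adjusted p = 0.0758) and without naive replicate 4 (-3.42, adjusted p = 0.0798). With the prefrontal arrays fitted alone it missed the threshold (-3.46, adjusted p = 0.0509). It was of like size with naive replicates 1 and 2 of each strain in use (-3.99, adjusted p = 8.33e-06). In that setting the same test called 3771 transcripts, against 8 here, and its naive arrays do not match across strains.

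Osmr, the receptor subunit for oncostatin M, a cytokine of the interleukin-6 family, showed the same order. It read 6.50 and 6.93 in AChE-R MPTP cortex, against 5.92 and 5.99 in AChE-R naive cortex, and the groups did not overlap. After MPTP it read 8.14 and 7.73 in FVB/N and 7.93 and 7.97 in AChE-S, against naive values of 6.37 and 6.17 in FVB/N and 5.56 and 5.66 in AChE-S. The rise of 0.76 ± 0.14 in AChE-R (adjusted p = 0.00156) was smaller than that of 2.34 in AChE-S (-1.58, adjusted p = 0.00593) and than the mean of both other strains (-1.24, adjusted p = 0.0148). The test against FVB/N alone did not call Osmr. With naive replicates 1 and 2 in use the AChE-R difference was -0.135 and that from the mean of both -1.555. The call against the mean of both was lost without AChE-R MPTP replicate 1 (adjusted p = 0.196), naive replicate 3 (0.0557) or naive replicate 4 (0.125), and with the prefrontal arrays fitted alone (0.0946). Lrg1, a secreted glycoprotein of the acute phase, rose 2.44-fold in AChE-R, with 7.85 and 7.99 after MPTP, against 6.61 and 6.66 in naive cortex. Its log2 difference of 1.28 ± 0.16 compared with 2.17 in FVB/N and 2.39 in AChE-S, and the difference from their mean missed the threshold (-0.99, adjusted p = 0.0983).

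Icam1, the endothelial adhesion molecule for leukocytes, read 6.20 and 6.05 after MPTP, against 5.49 and 5.62 in naive AChE-R cortex. Its rise of 0.57 was smaller than that of 1.65 in AChE-S (-1.07, adjusted p = 0.0198). The AChE-R rise lost its call without MPTP replicate 1 (adjusted p = 0.0641) or naive replicate 3 (0.0592), and the strain difference lost it without AChE-R MPTP replicate 1 (0.0794), AChE-R naive replicate 4 (0.136), AChE-S MPTP replicate 2 (0.112), AChE-S naive replicate 3 (0.0804) or AChE-S naive replicate 4 (0.0717). The chemokine Cxcl12 had a rise of 0.93 in AChE-R (adjusted p = 0.00458), 1.07 in AChE-S and a difference of -0.60 in FVB/N that was not called. The calgranulins S100a8 and S100a9, carried mainly by neutrophils, and the transcription factor Cebpd were chosen for mention after their values were seen. S100a8 read 5.82 and 5.91 in AChE-R MPTP cortex, against 4.84 and 4.83 in naive cortex, a difference of 1.03 ± 0.52 that was not called (adjusted p = 0.167). It rose by 2.39 in FVB/N and 3.24 in AChE-S. S100a9 differed by 0.28 in AChE-R (adjusted p = 0.68), against rises of 1.99 in FVB/N and 2.25 in AChE-S. Cebpd differed by 0.26 in AChE-R, with overlapping groups, against rises of 1.45 in FVB/N and 1.75 in AChE-S. The tests between strains did not call any of these 3 genes.

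**Figure D1:**
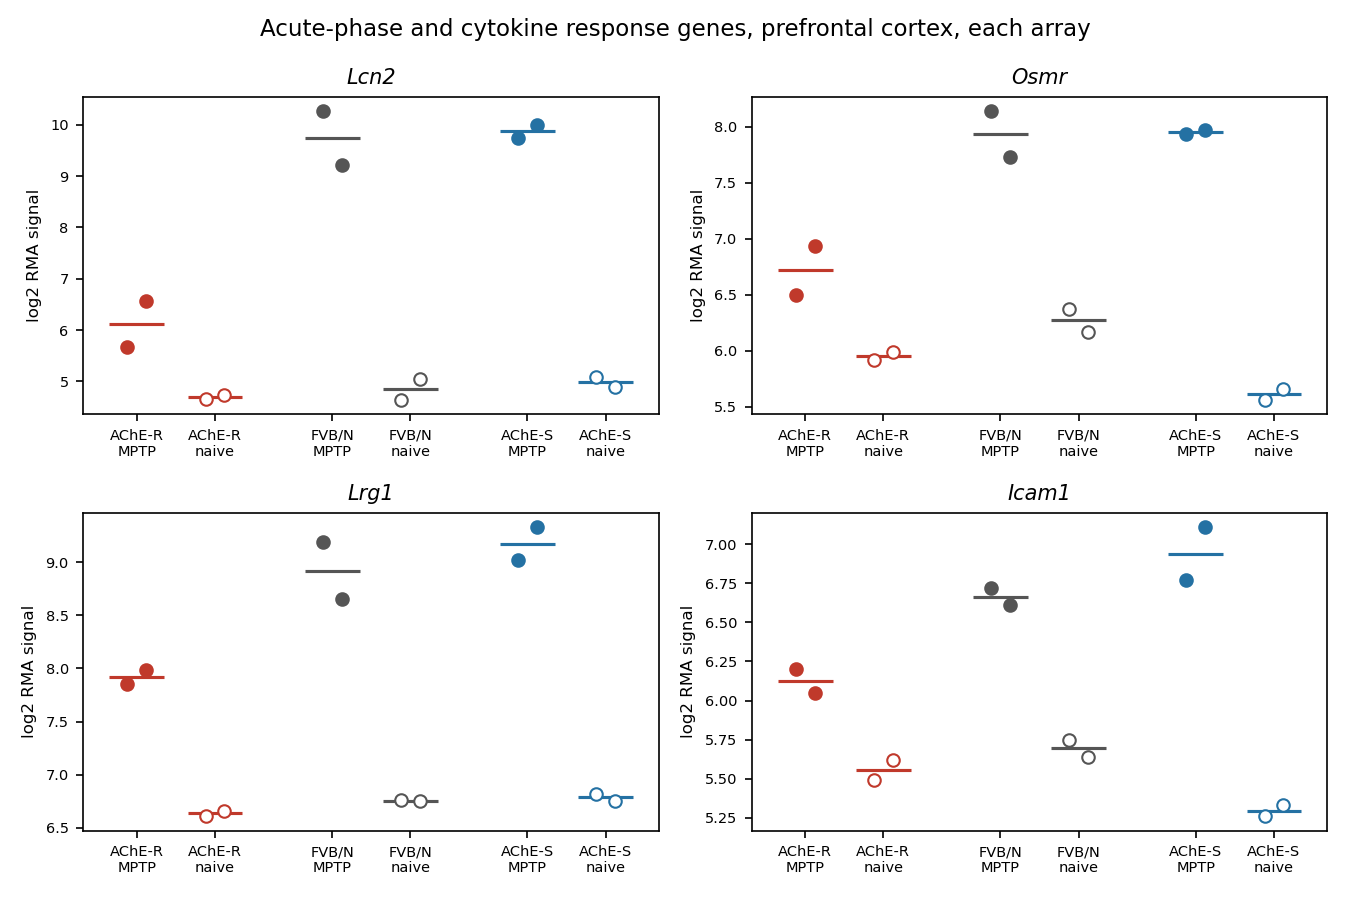
Log2 RMA signal of Lcn2, Osmr, Lrg1 and Icam1 in each prefrontal array by strain, with filled points for MPTP, open points for naive and a bar at the mean of 2 arrays. The AChE-R MPTP arrays sit above their naive arrays and below the MPTP arrays of FVB/N and AChE-S for all 4 genes.

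The stretches of 250 bases before the RefSeq start sites (GRCm38.p6) are shown for the 3 acute-phase genes that passed a test between strains, with capitals marking matches to TTCNNNGAA, the palindrome bound by STAT factors, or ACANNNTGT, the core of a glucocorticoid response element, each searched on both strands. Lcn2 lies at chr2:32387740-32387989 on the minus strand, Osmr at chr15:6874314-6874563 on the minus strand and Icam1 at chr9:21015690-21015939 on the plus strand.
Lcn2: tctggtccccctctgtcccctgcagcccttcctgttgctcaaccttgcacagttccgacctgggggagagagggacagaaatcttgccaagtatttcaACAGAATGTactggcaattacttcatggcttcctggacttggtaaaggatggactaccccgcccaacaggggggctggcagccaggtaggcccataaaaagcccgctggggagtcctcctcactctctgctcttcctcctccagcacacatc
Osmr: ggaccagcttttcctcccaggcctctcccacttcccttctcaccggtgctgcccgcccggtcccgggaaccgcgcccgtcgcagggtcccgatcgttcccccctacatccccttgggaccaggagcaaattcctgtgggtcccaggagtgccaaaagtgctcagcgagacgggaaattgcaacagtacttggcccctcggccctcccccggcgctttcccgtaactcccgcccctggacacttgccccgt
Icam1: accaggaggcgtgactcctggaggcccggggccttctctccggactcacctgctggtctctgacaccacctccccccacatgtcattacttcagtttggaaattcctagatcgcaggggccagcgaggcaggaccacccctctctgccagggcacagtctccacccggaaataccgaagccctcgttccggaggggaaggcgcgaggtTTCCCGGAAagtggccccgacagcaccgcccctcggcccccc
Icam1 holds 1 match to TTCNNNGAA, starting 42 bases before the start site, and Lcn2 holds 1 match to ACANNNTGT, starting 152 bases before it. Osmr holds neither in this window. Of 32851 promoters of the same length, 7.02% hold TTCNNNGAA and 5.84% hold ACANNNTGT. A match describes the letters and is not evidence of a bound site.

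Genes that glucocorticoid hormone induces held fewer called members in AChE-R than in the other strains, and this difference in counts was not tested. Of 19 measured members, 2 rose in AChE-R (median 0.17), against 15 in FVB/N (median 0.62) and 13 in AChE-S (median 0.57). Over all genes, 15.1% were called higher in AChE-R, 10.3% in FVB/N and 24.1% in AChE-S. All 19 had a smaller difference in AChE-R than the mean of the other strains, with a median of -0.42, compared with a median of 0.00 over all genes. None was called by limma in that test, while unadjusted p was under 0.05 for 13. This ordering held for 18 to 19 members when each prefrontal array was left out in turn. It held for 17 with naive replicates 1 and 2 in use. In that setting 1 member rose and 2 fell in AChE-R (median 0.01), against 9 that rose in FVB/N and 13 in AChE-S. Of all 22626 transcripts, 4541 were then called higher and 7721 lower in AChE-R. In FVB/N 2759 were called higher, and in AChE-S 5001. Fkbp5, a co-chaperone that dampens the glucocorticoid receptor, read 9.70 and 9.72 after MPTP, against 9.24 and 9.39 in naive AChE-R cortex. In FVB/N it read 10.65 and 10.53 after MPTP, against 9.48 and 9.19, and in AChE-S 10.58 and 10.63, against 9.73 and 9.58. Its AChE-R rise was 0.40 (adjusted p = 0.0481), against 1.25 in FVB/N and 0.95 in AChE-S. Zbtb16, a zinc finger repressor, rose by 0.56 (adjusted p = 0.0296), against 1.01 and 0.81 in the same strains. Both AChE-R calls were lost with any of the 4 arrays left out, at adjusted p up to 0.243 for Fkbp5 and 0.152 for Zbtb16, and under quantile normalization 0 of 19 members were called. Klf15, a metabolic transcription factor, differed by 0.28 in AChE-R without a call, against rises of 0.68 in FVB/N and 0.71 in AChE-S. Sult1a1, a phenol sulfotransferase, differed by 0.52 without a call, against rises of 1.46 and 1.02.

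Heat shock chaperones refold damaged proteins. None of 23 measured members rose in AChE-R and 1 fell, against 11 that rose in FVB/N and 8 in AChE-S. Of all genes, 15.1%, 10.3% and 24.1% were called higher in these strains in the same order, and 7.17% lower in AChE-R. The AChE-R median was -0.02, against 0.23 in FVB/N and 0.16 in AChE-S, and 22 of 23 members had a smaller difference in AChE-R than the mean of both. None was called by limma in that test, while unadjusted p was under 0.05 for 9. Using naive replicates 1 and 2 instead, 1 member rose and 11 fell in AChE-R (median -0.16), against 4 that rose and 1 that fell in FVB/N and 6 that rose in AChE-S, and with all 4 naive arrays none rose and 2 fell in AChE-R. The member that fell was Hspe1, the mitochondrial co-chaperonin, with 10.82 and 10.90 after MPTP, against 11.20 and 11.31 in naive cortex (-0.40, adjusted p = 0.00188). The stress-inducible Hspa1b read 9.76 and 10.02 after MPTP, against 10.15 and 10.22 in naive AChE-R cortex. Its difference of -0.29 was not called, while it rose by 0.43 in FVB/N.

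**Figure D2:**
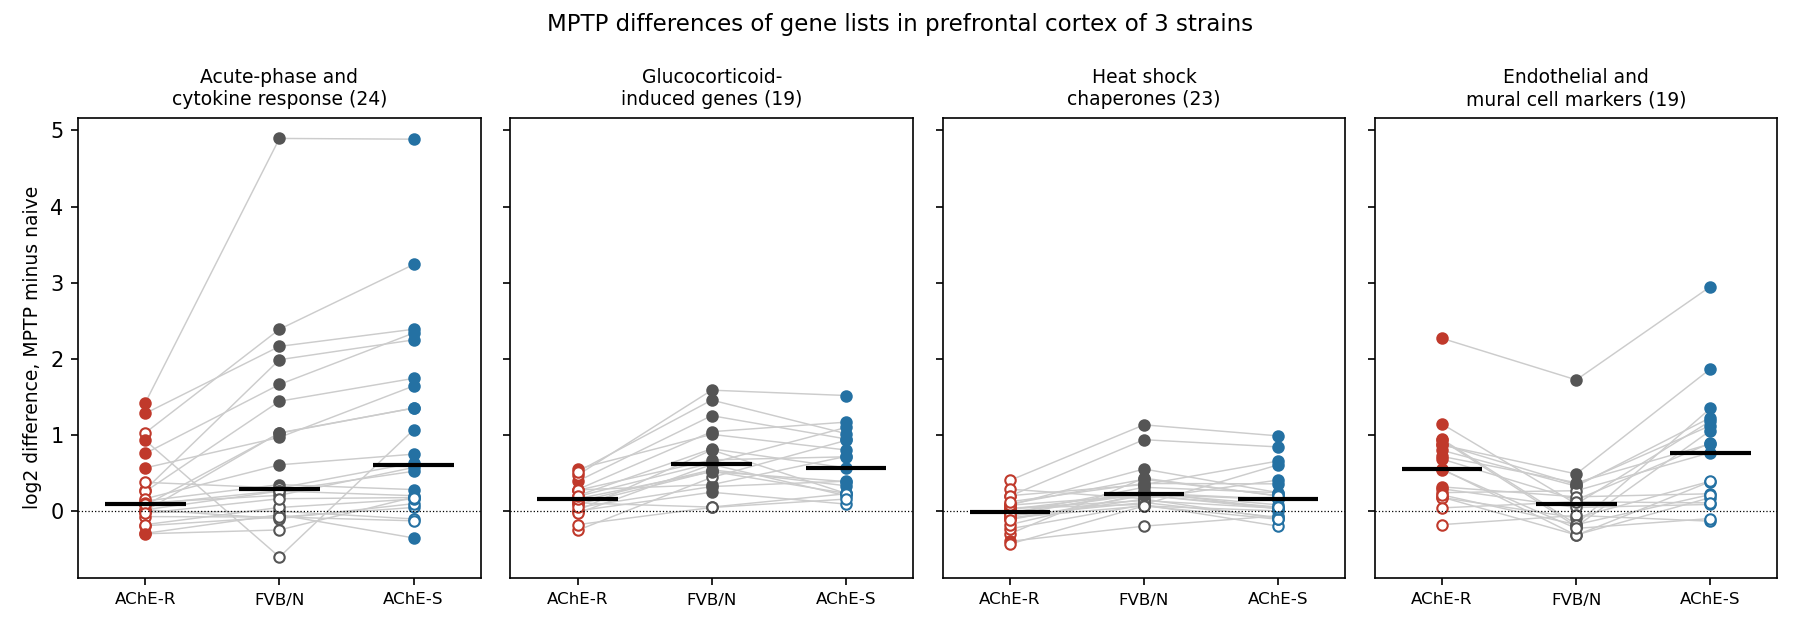
Log2 difference, MPTP minus naive, of every measured member of 4 gene lists in AChE-R, FVB/N and AChE-S prefrontal cortex, with filled points for called members, grey lines joining a gene and a bar at the median. AChE-R medians are 0.10, 0.17 and -0.02 in the first 3 lists, below those of both other strains, and 0.56 in the vessel list, between 0.10 in FVB/N and 0.77 in AChE-S.

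Many vessel genes rose in AChE-R. Of 19 measured markers of endothelial and mural cells, 13 rose and none fell, with a median of 0.56. In FVB/N 3 rose and 1 fell (median 0.10), and in AChE-S 11 rose (median 0.77). The shares of all genes called higher were 15.1% in AChE-R, 10.3% in FVB/N and 24.1% in AChE-S. Vwf, the clotting factor stored in endothelial cells, had the largest called rise of the AChE-R comparison. It read 7.56 and 7.84 after MPTP, against 5.48 and 5.38 in naive cortex, 4.82-fold higher (2.27 ± 0.14, adjusted p = 4.87e-07). The arrays were well apart, and Vwf also rose by 1.73 in FVB/N and 2.95 in AChE-S, with no call between strains. Tie1, an endothelial receptor tyrosine kinase, read 6.73 and 6.55 after MPTP, against 5.36 and 5.63 in naive AChE-R cortex. In FVB/N it read 5.94 and 6.06 after MPTP, against 5.84 and 5.97. The AChE-R rise of 1.15 exceeded the FVB/N difference of 0.10 by 1.05 (adjusted p = 0.0164), a call that was lost without AChE-R MPTP replicate 1 (adjusted p = 0.0653), AChE-R naive replicate 3 (0.0768) or FVB/N MPTP replicate 1 (0.086).

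Anpep, an aminopeptidase of pericytes and the brain's coverings, read 6.89 and 6.81 after MPTP, against 5.70 and 5.58 in naive cortex, a rise of 1.21. Its excess over the FVB/N rise of 0.47 was called (0.745, adjusted p = 0.0314) but was lost with 10 of the 12 prefrontal arrays left out singly, at adjusted p up to 0.158. Among junction and adhesion proteins of endothelium, Pecam1 rose by 0.80 and Esam by 0.72 in AChE-R. Genes of the leptomeninges and fibroblasts moved alongside. They are read against the 15.1% of all genes called higher in AChE-R, 10.3% in FVB/N and 24.1% in AChE-S. Of 15 measured members, 6 rose in AChE-R and none fell, with a median of 0.47, against 1 in FVB/N and 10 in AChE-S, and all 15 had a larger difference in AChE-R than in FVB/N, with none called by limma and 7 at an unadjusted p under 0.05. Slc6a13, a GABA and taurine carrier of the meninges, read 7.68 and 7.76 after MPTP, against 6.95 and 6.89 in naive cortex, without overlap. The collagen-binding Fmod rose by 0.79, the retinoic acid-producing Aldh1a2 by 0.83 and the collagen chain Col1a2 by 0.56. In tissue RNA, more cells of a type and more RNA per cell cannot be told apart, and the amount of meninges left on a dissected cortex was not tested.

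These vessel and meningeal values depended on the naive pair. The naive AChE-R arrays that were left out read 6.84 and 7.68 for Vwf, 6.26 and 6.59 for Tie1 and 7.92 and 8.30 for Slc6a13, near or above the MPTP arrays. With naive replicates 1 and 2 in use, Vwf differed by 0.44 (adjusted p = 0.0756), Tie1 by 0.215 (adjusted p = 0.103) and Anpep by 0.055 (adjusted p = 0.603), and 3 of 19 vessel markers rose and 3 fell. Pecam1 (0.49) and Esam (0.33) were among those that still rose. In that setting 0 of 15 meningeal genes rose and 8 fell, among them Slc6a13 (-0.39) and Fmod (-0.38). The median over all 22626 transcripts was -0.125 there, and 4541 were called higher and 7721 lower in AChE-R. The naive arrays in that setting differ from the MPTP arrays in Xist and actin signal, as given above.

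**Figure D3:**
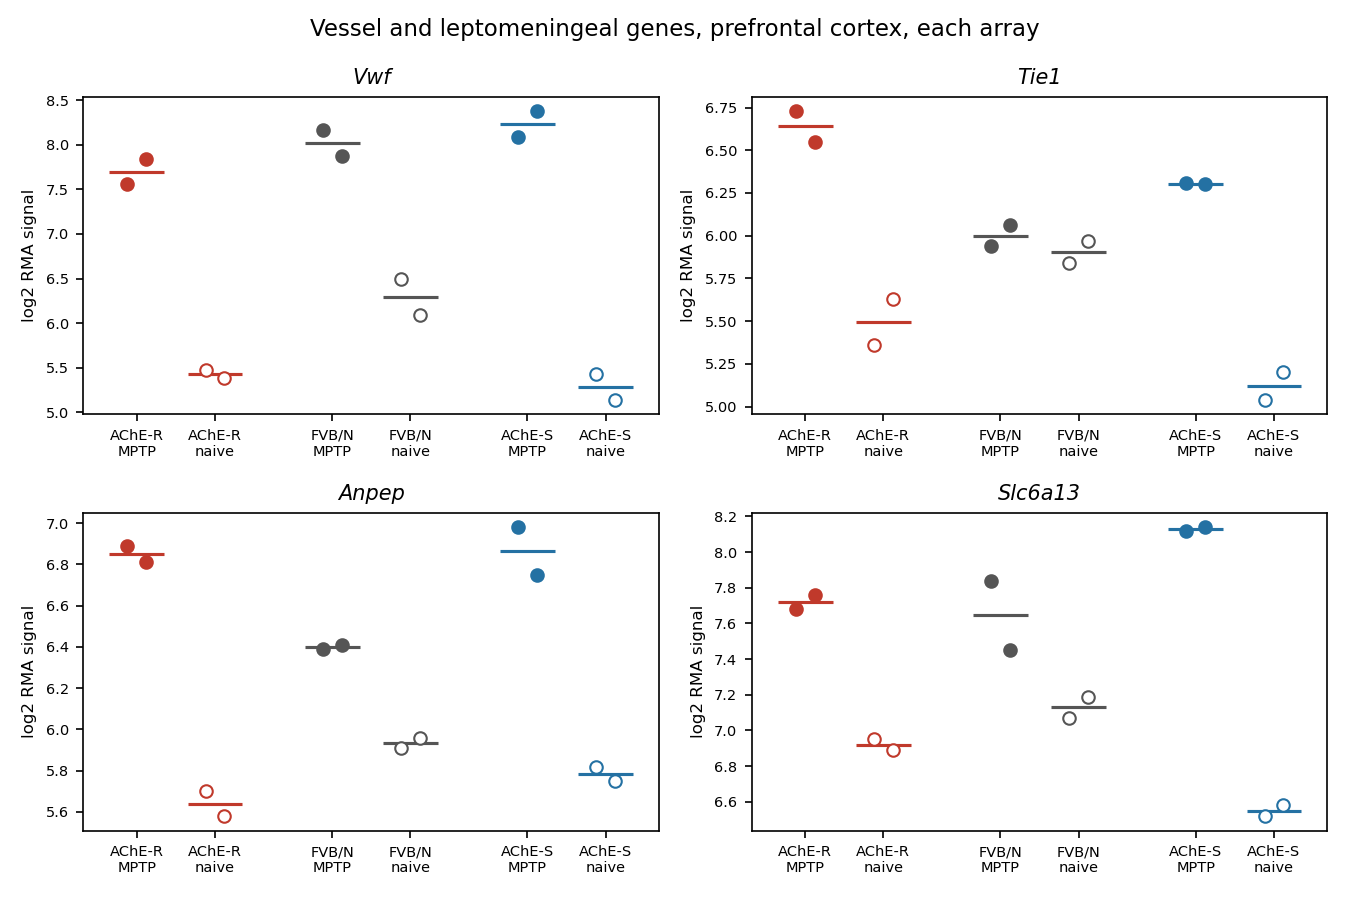
Log2 RMA signal of Vwf, Tie1, Anpep and Slc6a13 in each prefrontal array by strain, with filled points for MPTP, open points for naive and a bar at the mean of 2 arrays. Both AChE-R MPTP arrays lie above both AChE-R naive arrays for all 4 genes, by 2.27 on average for Vwf.

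Other large rises came from genes with varied roles. Neat1, the long noncoding RNA of nuclear paraspeckles, read 10.18 and 10.22 after MPTP, against 8.53 and 8.99 in naive AChE-R cortex (1.44 ± 0.27, 2.71-fold, adjusted p = 0.00178). It rose by 1.86 in AChE-S, and its difference of 0.34 in FVB/N was not called. Leng8, a protein linked to messenger RNA export, read 10.85 and 10.98, against 9.42 and 9.54 in naive cortex (2.70-fold). The kinase Dmpk rose 2.51-fold, the corepressor Tle2 2.35-fold, Arhgef1 2.31-fold and Vps52, of the complex that returns endosomes to the Golgi, 2.23-fold. All 6 remained called with each AChE-R array left out in turn and with naive replicates 1 and 2 in use. Slc47a1, a carrier that exports organic cations, read 7.83 and 7.46 after MPTP, against 6.30 and 6.41 in naive cortex. It rose 2.45-fold, but the naive arrays left out read 7.86 and 8.05, and with them in use the difference was -0.31 (adjusted p = 0.234).

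The largest fall was in B3galt2, a galactosyltransferase of glycan synthesis, with 5.92 and 6.05 after MPTP, against 7.60 and 7.13 in naive AChE-R cortex, 2.60-fold lower (-1.38 ± 0.18, adjusted p = 0.000164). It also fell by 0.85 in FVB/N and by 1.62 in AChE-S. Klhl13, a substrate adaptor of a ubiquitin ligase, fell by 1.01 in AChE-R and Pnrc2, a factor in mRNA decay, by 0.99. The vesicle protein Synpr fell by 0.89, the Y-linked zinc finger gene Zfy2 by 1.03, from a low signal, and the secreted Bpifb1 by 0.96. With naive replicates 1 and 2 in use, neither Zfy2 (-0.12, adjusted p = 0.643) nor Bpifb1 (-0.17, adjusted p = 0.46) was called, and neither was Cwf19l1, a protein related to a splicing factor (-0.46, adjusted p = 0.137), which had fallen by 0.90.

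Further large falls varied between the arrays of a group. S100a5, a calcium-binding protein of olfactory sensory neurons, read 6.33 and 7.20 after MPTP, against 7.60 and 8.49 in naive cortex (-1.28 ± 0.39, adjusted p = 0.0259). Fabp7, a lipid carrier of radial glia and astrocytes, read 10.07 and 10.80, against 11.32 and 11.70 (-1.07, adjusted p = 0.013). Cd24a, a surface glycoprotein of immature neurons, fell by 1.06 and the matrix protein Abi3bp by 1.00. MPTP replicate 1 had the lowest signal of the 4 arrays for each of these 4 genes and naive replicate 4 the highest. Without MPTP replicate 1 none was called, at adjusted p = 0.238 for S100a5, 0.165 for Fabp7, 0.14 for Cd24a and 0.244 for Abi3bp, and without naive replicate 4 the values were 0.226, 0.102, 0.108 and 0.185. The same loss applied to Cwf19l1 (0.111 and 0.0717). Of 11 measured markers of olfactory bulb neurons and glia, 1 fell and none rose (median -0.365), and their mean signal was 7.45 and 8.43 in the AChE-R MPTP arrays, against 8.08 and 8.68 in the naive ones. Without MPTP replicate 1 the list median was 0.075 and none fell, and without MPTP replicate 2 it was -0.895 and 4 fell. The difference was negative for 9 of these 11 in AChE-R and for 10 in FVB/N (median -0.21), where 1 rose and none fell. In AChE-S 6 of the 11 rose and 1 fell (median 0.93). Among all genes, 7.17% were called lower in AChE-R. The shares called higher and lower were 10.3% and 6.58% in FVB/N, and 24.1% and 14.6% in AChE-S. The part of dissection in these values was not tested.

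**Figure D4:**
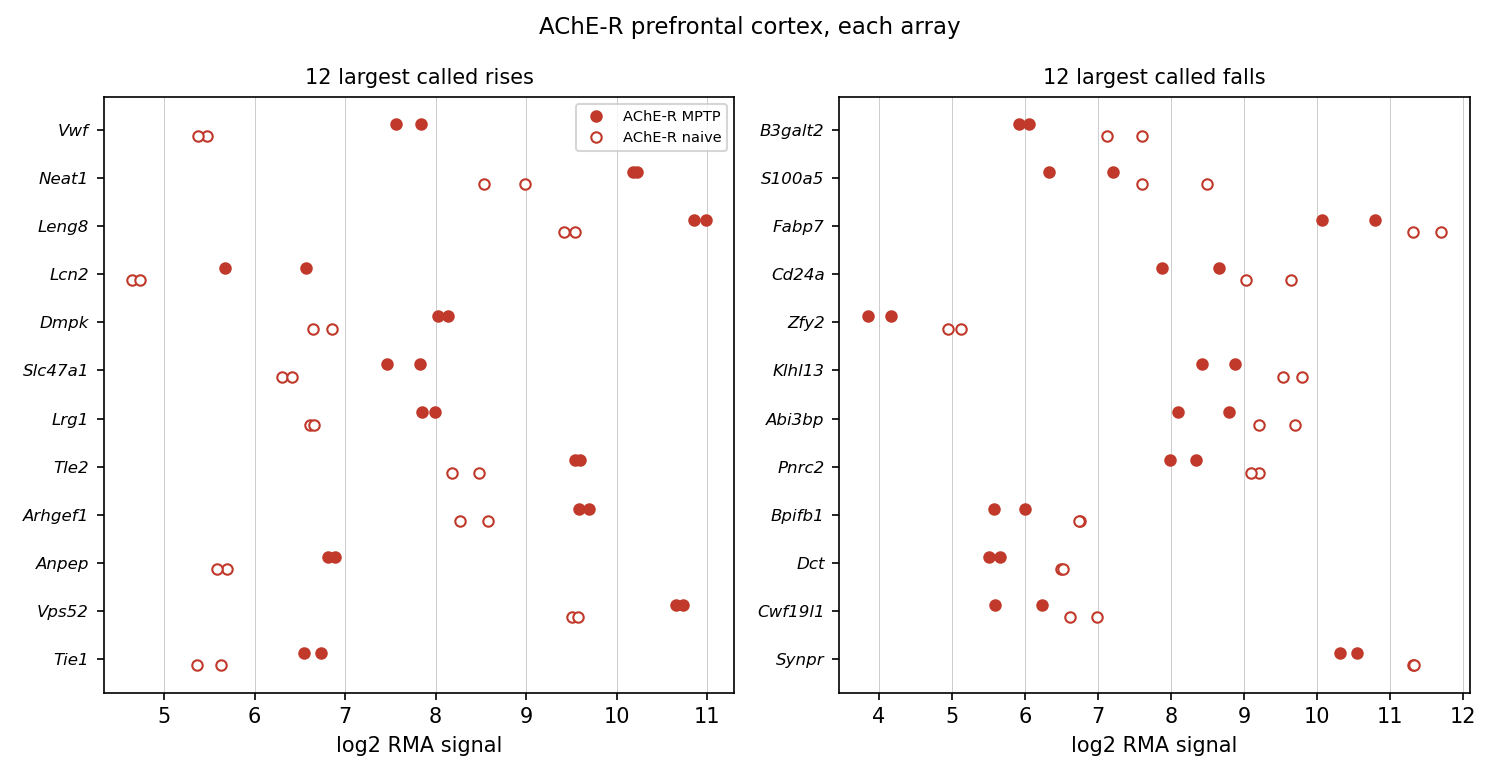
Log2 RMA signal of the leading called genes of AChE-R prefrontal cortex, 12 rises and 12 falls by size of difference, with filled points for the 2 MPTP arrays and open points for the 2 naive arrays of each gene. No gene has overlapping groups, as the choice of genes requires, and the MPTP points of Lcn2 and both groups of S100a5 are widely spread.

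Ache, the mouse acetylcholinesterase gene, rose. It read 9.21 and 9.28 in AChE-R MPTP cortex, against 8.66 and 8.83 in naive cortex, without overlap. The rise was 1.41-fold (0.50 ± 0.12, adjusted p = 0.0065), equal in size to that of 0.50 in AChE-S and compared with 0.23 in FVB/N, which was not called. It lost its call without naive replicate 3 (0.415, adjusted p = 0.0729), and with naive replicates 1 and 2 in use the difference was -0.015. The human transgene was not checked, since these probe sets are of mouse genes. Bche, the related butyrylcholinesterase, differed by -0.15 without a call. Of 17 measured genes of acetylcholine signalling and cholinesterases, 5 rose and none fell, with a median of 0.13. Among all genes, 15.1% were called higher and 7.17% lower in AChE-R. The muscarinic receptor genes Chrm4 and Chrm1 each rose by 0.53 and the nicotinic subunit gene Chrnb2 by 0.37. Chrm1 lost its call without MPTP replicate 1 (adjusted p = 0.103) or naive replicate 4 (0.0564), and Chrnb2 with any of the 4 arrays left out, at up to 0.129. Chat, which makes acetylcholine, has no probe set with a single symbol here. Of 10 measured genes of dopamine synthesis and signalling, 2 rose and none fell (median 0.03, but -0.0475 without MPTP replicate 2 and -0.04 without naive replicate 3). Gch1, which makes the cofactor of tyrosine hydroxylase, rose by 0.36, and lost its call without MPTP replicate 1 (adjusted p = 0.0577) or naive replicate 3 (0.107).

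Of 16 measured clock genes, 5 were called higher and 1 lower in AChE-R (median 0.21), and 13 had a positive difference. Over all genes 15.1% were called higher and 7.17% lower, and the called fall lies near that share. Nr1d1, the nuclear receptor that represses Arntl, read 9.93 and 9.73 after MPTP, against 8.90 and 8.76 in naive cortex, a 2-fold rise (1.00 ± 0.11, adjusted p = 3.54e-05). Per3, a period protein, rose by 0.82. Both rose in all 3 strains, at 0.82 and 0.96 for Nr1d1 and at 0.64 and 0.68 for Per3 in FVB/N and AChE-S. The output factor Dbp set AChE-R apart from AChE-S. It read 11.57 and 11.44 after MPTP, against 11.31 and 11.45 in naive AChE-R cortex, with overlapping groups. In AChE-S it read 10.49 and 10.39 after MPTP, against 11.31 and 11.49, a fall of 0.96. The difference between these strains was 1.08 (adjusted p = 0.00296) and remained called with each array left out in turn, but not with naive replicates 1 and 2 in use (0.345, adjusted p = 0.0745). Its competitor Nfil3, a repressor at the same sites, went the opposite way, with a difference of -0.12 in AChE-R without a call, a rise of 1.09 in AChE-S and a test between them of -1.215 (adjusted p = 0.00593). This call too remained with each array left out, and was lost with naive replicates 1 and 2 in use (-0.255, adjusted p = 0.316). The labels give no time of day for tissue collection.

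Some other genes differed in AChE-R from the mean of both strains. Dct, an enzyme of melanin synthesis, read 5.51 and 5.66 after MPTP, against 6.50 and 6.52 in naive AChE-R cortex, and 5.84 and 5.75 in FVB/N MPTP cortex, against 5.83 and 5.52 in its naive arrays. It fell by 0.93 in AChE-R and was not called in the other strains, and the difference from their mean was -0.96 (adjusted p = 0.0148). The naive AChE-R arrays lay above every FVB/N and AChE-S array used, while the AChE-R MPTP arrays lay near them. Nmbr, the receptor for neuromedin B, read 7.15 and 7.30, against 7.68 and 7.89 in naive AChE-R cortex, a fall of 0.56, while it rose by 0.40 in AChE-S (-0.92 against the mean of both, adjusted p = 0.018). The homeobox gene Pknox1 fell by 0.28 in AChE-R and rose by 0.56 in AChE-S (-0.64 against the mean of both, adjusted p = 0.0393). It was not called against FVB/N alone. Arhgap10 read 7.99 and 7.97, against 7.05 and 7.10 in naive cortex, and its rise of 0.91 exceeded those of 0.26 in FVB/N and 0.34 in AChE-S (0.61 against their mean, adjusted p = 0.0407). The test against AChE-S alone did not call Arhgap10. These 4 differences from the mean of both strains, with naive replicates 1 and 2 in use, were 0.23, 0.14, 0.46 and 0.15 in the order given, none of them called, and 3 of the 4 had the other sign. With each of the 12 prefrontal arrays left out in turn, the call was kept in 9 fits for Dct, 8 for Nmbr, 3 for Pknox1 and 4 for Arhgap10, and none of the 4 was called with the prefrontal arrays fitted alone (adjusted p = 0.0946, 0.0946, 0.11 and 0.128 in the same order).

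Glial marker lists are read here against the 15.1% of all genes called higher and 7.17% called lower in AChE-R. Of 15 microglial markers 1 rose and 2 fell (median 0.13), and of 17 astrocyte markers 1 rose and 4 fell (median close to 0). Gfap, the filament protein of reactive astrocytes, was the astrocyte marker that rose, with 10.02 and 10.42 after MPTP, against 9.35 and 9.48 in naive cortex (1.75-fold, adjusted p = 0.00459). The naive arrays left out read 10.60 and 10.89, and with them in use Gfap fell in MPTP cortex, by 0.525 (adjusted p = 0.0162), and without MPTP replicate 2 the rise was not called (adjusted p = 0.0598). The water channel Aqp4 of astrocytic endfeet fell by 0.40, not called without MPTP replicate 1 (adjusted p = 0.141) or naive replicate 4 (0.0541). Of 12 oligodendrocyte and myelin markers 3 fell and none rose (median -0.27). Fewer astrocyte and myelin markers were called lower without MPTP replicate 1 or without naive replicate 4. In these 2 settings the median was 0.03 and -0.03 for astrocytes and -0.2175 and -0.1875 for myelin. Ugt8a, which makes the galactolipid of myelin, read 8.54 and 8.76 after MPTP, against 9.28 and 9.53 in naive cortex, and fell by 0.76. Mog, a protein of the outer myelin sheath, fell by 0.63, not called without MPTP replicate 1 (adjusted p = 0.148), MPTP replicate 2 (0.08) or naive replicate 4 (0.24). None of 7 choroid plexus and ependymal markers was called, and 1 of 8 blood cell markers rose.

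Neuronal lists stand beside the same shares. Markers of cortical glutamatergic neurons gave 3 rises among 16 (median 0.05), interneuron and peptide genes 1 fall among 20 (median -0.06), striatal genes 2 rises and 1 fall among 12 (median 0.09), and thalamic and hypothalamic genes 1 rise among 12 (median -0.05). Tac1, the precursor of substance P, was the peptide gene that fell, with 9.50 and 9.62 after MPTP, against 10.20 and 10.32 in naive AChE-R cortex (-0.70, adjusted p = 9.79e-05), and it also fell by 0.35 in FVB/N and by 0.46 in AChE-S. Synaptic vesicle and release genes gave 5 rises and 1 fall among 23 (median 0.16), with Syn1, which tethers vesicles, up by 0.38. Glutamate and GABA receptor genes gave 5 rises and 2 falls among 20 (median 0.01). Gabrd, the delta subunit of extrasynaptic GABA receptors, read 11.43 and 11.39, against 10.81 in both naive arrays, and rose by 0.60. Potassium channel genes gave 5 rises and 3 falls among 33 (median 0.00). Without MPTP replicate 1 the median of the thalamic and hypothalamic genes was 0.05 and that of the potassium channels -0.025. Kcnip2, which modulates A-type potassium currents, rose by 0.74 in AChE-R, 0.93 in FVB/N and 0.92 in AChE-S.

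The medians of genes of energy and protein metabolism leaned lower. Over all genes, 15.1% were called higher and 7.17% lower in AChE-R, with 6.58% called lower in FVB/N and 14.6% in AChE-S. The called falls of complex I in AChE-R and FVB/N lay near these shares. Of 33 genes of mitochondrial complex I, the target of the MPTP metabolite, 3 fell and none rose in AChE-R (median -0.125), against 2 falls in FVB/N (median -0.14) and 25 in AChE-S (median -0.26). Respiratory complexes II to V gave 6 falls and 1 rise among 38 (median -0.12), with Uqcrh of complex III down by 0.29, and ribosomal protein genes 7 falls and 1 rise among 37 (median -0.16), with Rplp0 down by 0.40. Proteasome genes gave 6 falls and 2 rises among 31 (median -0.11), with 22 falls in AChE-S. The core subunit Psma7 fell by 0.36 while the regulatory subunit Psmd11 rose by 0.79 on its representative probe set, although 1 of its 6 probe sets was called in that direction. Splicing factor genes went both ways, 10 higher and 5 lower among 46 (median 0.06), with Ptbp1 up by 0.67 and Srsf3 down by 0.42. Antioxidant and metallothionein genes gave 4 rises and 3 falls among 23 (median -0.02), and Mt3, the metallothionein of the brain, read 12.84 and 12.87, against 12.08 and 12.13 in naive cortex (0.75, adjusted p = 2.55e-05). Interferon response and MHC class I genes gave 5 rises among 21 (median 0.125), with H2-D1 up by 0.52. Immediate early genes gave 2 rises among 24 (median 0.09), with Jund up by 0.59. Their median was 0.2675 without MPTP replicate 1, -0.0325 without MPTP replicate 2 and -0.025 without naive replicate 3, and with naive replicates 1 and 2 in use 1 rose and 6 fell (median -0.1975). Apoptosis and p53 genes gave 2 rises among 17 (median 0.05, and -0.03 without MPTP replicate 2). None of 4 sex-linked genes was called.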

How the data were processed

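RNA of dissected prefrontal cortex was hybridised to Affymetrix mouse arrays. The deposited values are log2 signals per probe set; per the submitters' processing notes, the authors used RMA with Affymetrix Power Tools and Affymetrix Expression Console, versions not given in the sources used here. Of 22690 probe sets, 64 controls were left out; 20380 of those tested have 1 symbol, 691 several and 1555 none, and the probe set with the highest mean represented each of 12393 genes. One limma fit (R 4.3.3, limma 3.58.1) over 23 arrays estimated 12 group means with 11 residual degrees of freedom. Of the 23 arrays, 11 were of the caudate-putamen, the other region of the series. The spread behind each p is therefore pooled over both regions, except where prefrontal or AChE-R arrays were fitted alone. P-values were adjusted by Benjamini-Hochberg over 22626 probe sets. The fit was tested on simulated data with known differences. These data had independent noise and no shift between array sets, so they could not test the effect of such a shift. Genes named are the 12 largest called rises and falls without overlap, and the leading members of each list. From the strain tests, the called genes of smallest p in each direction are named. Exceptions are stated. The members and lists were chosen with earlier results of these data known. Alternatives covered normalization, filtering, variance, the arrays fitted, the naive pair and each array left out. The number of arrays limits the precision.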

Additional observations from a re-analysis of the deposited data

Results flagged for a closer look

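The genes below stood out because the MPTP difference in AChE-R cortex differed from that in another strain by limma's test of the difference itself, with p adjusted over all transcripts. Each value is the AChE-R log2 difference minus that of the other strain or strains, from 2 arrays per group. The test against AChE-S called 36 genes, 5 higher and 31 lower in AChE-R. Of these, the ones of smallest p in each direction are listed, with Icam1 from the acute-phase list.

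Against FVB/N, the difference was larger in AChE-R for Tie1 (1.05, adjusted p = 0.0164), the membrane-associated Phldb2 (1.45, adjusted p = 0.0241), Anpep (0.745, adjusted p = 0.0314) and Arhgap10 (0.645, adjusted p = 0.049). It was lower for Lcn2 (-3.47, adjusted p = 0.0164), Dct (-1.045, adjusted p = 0.0186), the fatty acid carrier Fabp1 (-0.60, adjusted p = 0.0472) and Nmbr (-0.88, adjusted p = 0.0472). With each of the 12 prefrontal arrays left out in turn, the call was kept in 9 fits for Tie1, 7 for Lcn2, 6 for Dct, 5 for Phldb2, 2 each for Anpep, Arhgap10 and Fabp1, and 0 for Nmbr.

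Against AChE-S, the difference was larger in AChE-R for Dbp (1.085, adjusted p = 0.00296), the transducin subunit Gngt1 (1.035, adjusted p = 0.00615), the oocyte linker histone H1f8 (1.025, adjusted p = 0.0118), the muscle cytochrome oxidase subunit Cox6a2 (0.575, adjusted p = 0.0198) and the interferon-induced Ifit3 (0.605, adjusted p = 0.0198). It was lower for Osmr (-1.58, adjusted p = 0.00593), Nfil3 (-1.215, adjusted p = 0.00593), Lcn2 (-3.46, adjusted p = 0.00651), Pknox1 (-0.845, adjusted p = 0.00651), the stress-induced transcription factor Atf3 (-1.24, adjusted p = 0.00651) and the ubiquitin ligase Trim25 (-0.89, adjusted p = 0.00844). It was also lower for the basement membrane protein Nid2 (-0.68, adjusted p = 0.01), the melanosome protein Tyrp1 (-0.88, adjusted p = 0.0118), the teneurin Tenm3 (-1.155, adjusted p = 0.0118), the exocytosis factor Doc2b (-1.435, adjusted p = 0.0118) and Icam1 (-1.075, adjusted p = 0.0198). The call was kept in all 12 of these fits for Dbp, Osmr and Nfil3, and in 7 to 11 for the others.

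Of the 7 genes called against the mean of both strains, Dbp, Osmr and Pknox1 were not called against FVB/N alone, nor Arhgap10 against AChE-S alone. Against the mean of both strains, the difference was larger in AChE-R for Dbp (0.6825, adjusted p = 0.0355) and Arhgap10 (0.6075, adjusted p = 0.0407). It was lower for Lcn2 (-3.465, adjusted p = 0.0051), Dct (-0.9625, adjusted p = 0.0148), Osmr (-1.2425, adjusted p = 0.0148), Nmbr (-0.92, adjusted p = 0.018) and Pknox1 (-0.6425, adjusted p = 0.0393). The call was kept in 10 of the 12 fits for Lcn2, 9 each for Dct and Osmr, 8 for Nmbr, 5 for Dbp, 4 for Arhgap10 and 3 for Pknox1, and none of the 7 was called with the prefrontal arrays fitted alone (adjusted p = 0.0509 to 0.139).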

How the results depend on the processing

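With naive replicates 1 and 2 of each strain in place of 3 and 4, 12262 transcripts were called in AChE-R, and 2351, 3618 and 3771 in the tests against FVB/N, AChE-S and both; the median AChE-R difference over all transcripts was then -0.125. With all 4 naive arrays the counts were 2746 in AChE-R, 487 in FVB/N, 3984 in AChE-S, and 1, 1 and 2 in the tests between strains. With a gene's probe sets averaged they were 3080, 2385 and 4953 in the strains, 35 against FVB/N and 18 against both. The 4 AChE-R arrays alone gave 3169. Quantile normalization gave 8 against FVB/N. The prefrontal arrays alone gave 21 against AChE-S and, with limma, 0 against both, with 2046 at an unadjusted p under 0.05. With 1 array left out the counts ranged from 2492 to 3361 in AChE-R, 0 to 12 against FVB/N, 4 to 122 against AChE-S and 0 to 27 against both; in the tests that gave 0, unadjusted p was under 0.05 for 1453 to 1927 transcripts.

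No paired analysis was possible for AChE-R MPTP replicates 1 and 2 against naive replicates 3 and 4 because they share no replicate number. The replicate block with naive replicates 1 and 2 gave 12242, and the replicate block in the test against FVB/N gave 7. Within a treatment, the difference between the 2 arrays of one strain was correlated with that of another strain. These correlations ran from -0.36 to -0.05, so like numbers did not go with like deviations between strains. They do not bear on a pairing of MPTP with naive arrays.

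With naive replicates 1 and 2, with or without the block, the AChE-R difference turned sign for Slc47a1 (-0.31), Ache (-0.015), Osmr (-0.135), Icam1 (-0.365), S100a9 (-0.13), Cebpd (-0.42), Slc6a13 (-0.39), Aldh1a2 (-0.575), Fmod (-0.38), Col1a2 (-0.16), Gfap (-0.525), Gch1 (-0.255), H2-D1 (-0.05) and Srsf3 (0.105). So did the difference from FVB/N for Dct (0.98) and Nmbr (0.11), from AChE-S for Pknox1 (0.885) and Tenm3 (0.555), and from both for Dct (0.2275), Nmbr (0.1425) and Pknox1 (0.46). With all 4 naive arrays Cebpd was -0.08 and Pknox1 against AChE-S 0.02. Cebpd ranged from -0.075 to 0.59 with 1 array left out. The causes were not tested. Leaving out FVB/N and AChE-S arrays was added after seeing the data.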
